A study of Mus musculus with 14 samples.

Results

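Mouse embryonic fibroblasts (MEFs) that had received retroviruses for Sox2, Klf4 and Oct4 (SKO) were compared between day 3 and day 5 after infection. Each day had 1 array of cells kept without vitamin C and 1 of cells kept with 50 µg/ml vitamin C, so the comparison used 4 of the 14 arrays of the series, 2 a side. Changes were taken within each vitamin C arm, and the genes of interest were those that moved the same way in both arms: 12396 of 19938 genes measured (62.2%), of which 5803 were higher (29.1% of all) and 6593 lower (33.1%) on day 5. Of these, 5113 changed by less than 0.1 on the log2 scale in the arm with the smaller change, so a shared sign alone says little. A model over all 12 SKO arrays (days 3, 4, 5, 6, 8 and 10), with the day and the arm as terms, gave each gene its error and its adjusted p.

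All groups started as MEFs in serum-containing fibroblast medium, and from day 2 their medium was that of embryonic stem cells, with serum and the cytokine LIF. The control MEFs, lysed on day 3 only, had received a GFP virus in place of the factors, and again gave 1 array without and 1 with vitamin C. Every GFP value below is therefore of day 3. Without GFP arrays of day 5, effects of the factors cannot be told apart from those of time in culture or in the new medium. The factors came from retroviruses, which continue to make the proteins in infected cells until they are silenced. The labels name no strain, embryonic age or number of cultures, and with 1 array for each condition and day the errors rest on how steady the difference between the arms was over the 6 days, not on replicate cultures. The cells were measured in bulk, so more cells with a transcript and more transcript per cell cannot be told apart. All values below are log2 signals of the deposited table, and a difference of 1 is a 2-fold change. Values are given without vitamin C first and with vitamin C second.

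Reprogramming of fibroblasts by these factors is known to begin with the loss of fibroblast gene expression and a gain of epithelial features, called the mesenchymal-to-epithelial transition. Early pluripotency-associated genes are activated next, and the endogenous pluripotency network, with Nanog, follows late. Cell division, stress responses and senescence regulators are known to affect how many cells pass these steps. Vitamin C is a cofactor of iron and 2-oxoglutarate-dependent dioxygenases, among them enzymes that demethylate DNA and histones.

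Factor and fibroblast genes were read first, as a check of the labels. Pou5f1, which encodes Oct4, had values of 4.06 and 4.10 in GFP cells; in SKO cells they were 11.19 and 11.31 (day 3), then 11.76 and 11.83 (day 5). Klf4 stood at 7.43 and 7.51 in GFP cells and between 8.37 and 8.72 in the 4 SKO arrays. Sox2 was lower in signal, with 4.28 and 4.81 in GFP cells, 5.14 and 5.15 in SKO cells of day 3 and 5.81 and 5.60 in those of day 5. None of the 3 factors passed the test between the days (Pou5f1 by 0.54 ± 0.17 (SE), adjusted p = 0.200; Sox2 by 0.55 ± 0.17, adjusted p = 0.167; Klf4 by 0.19 ± 0.17, adjusted p = 0.767). Transcripts of the virus and of the cells' own genes were not told apart. The fibroblast genes Col1a1, which encodes the main chain of type I collagen, and Prrx1, a mesenchymal transcription factor, were high in all 4 SKO arrays, with Col1a1 between 11.93 and 12.42 and Prrx1 between 10.07 and 10.25. Medians of the 14 arrays lay between 5.19 and 5.28. The day 4 arrays stood apart from both neighbours. Between days 3 and 4, 1598 genes (8.01%) passed the test, and 1442 (7.23%) between days 4 and 5. Between days 3 and 5 it was 278, in comparisons that share arrays. Day 4 was not alone: SKO means of Tet3 were 6.65, 6.93 and 6.88 on days 4, 6 and 8. On days 3, 5 and 10 they were 5.64, 6.00 and 6.04. For Snai1 they were 6.59, 6.61 and 6.55 against 6.26, 6.06 and 5.88. These 2 preset genes were picked for this after their values were seen, and the cause was not tested.

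Between day 3 and day 5, 278 of 19938 genes passed the test (1.39%), 222 higher (1.11%) and 56 lower (0.281%) on day 5. All 278 had 1 sign in both arms. The test favours this, because a disagreement between the arms shrinks the mean change and adds to its error. An unadjusted p under 0.05 was found in 2236 genes. The 222 that rose did so by a median of 1.08, between 0.67 and 3.09, with medians of 1.02 without and 1.14 with vitamin C. Of these, 103 were at least 2-fold higher in both arms, a size that 116 of all genes reached (0.582%). The 56 that fell did so by a median of -0.88, between -0.67 and -1.55, and 5 of them were at least 2-fold lower in both arms, as were 6 of all genes (0.0301%). The median of all genes was -0.01. Fewer genes passed when any 1 of the 4 arrays was left out. Each such fit has 1 array on day 3 or on day 5 and fewer degrees of freedom. A lost call alone therefore does not show that 1 array drove a change. Estimates moved little in some genes, as in Dysf (-1.05 to -0.98), and more in others, as in Avil (1.90 to 3.06). There were 23 genes, all higher on day 5, that passed under each of these omissions, and 166 of the 278 passed under none.

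**Figure D1:**
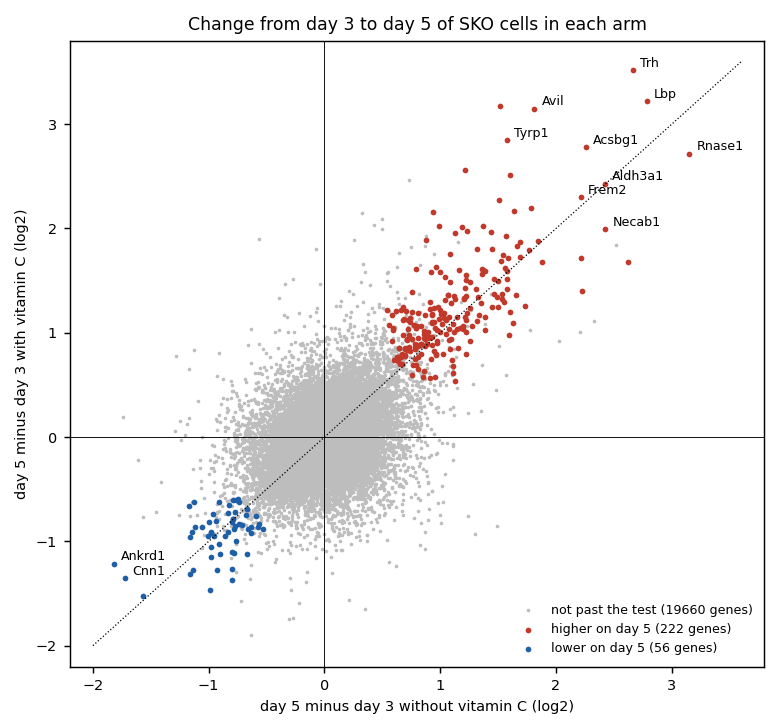
Change from day 3 to day 5 without vitamin C (horizontal, log2) against the change with vitamin C (vertical, log2), 1 point a gene; the dotted line marks equal change. The 222 genes that passed the test as higher and the 56 that passed as lower lie on the same side of 0 in both arms, which the test favours. The rises reach further than the falls.

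The 222 genes that rose had a median signal of 5.36 in GFP cells, 5.86 in SKO cells of day 3 and 7.07 on day 5, while the median over all genes was 5.51, 5.48 and 5.51. Single genes differed in their start: on day 3 Aldh3a1 and Tek were above GFP cells and Cdkn1c and Lum below them, with values given with each gene. The genes that fell were at 6.86 in GFP cells and 6.94 in SKO cells of day 3, and at 5.95 on day 5.

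The largest rise was that of Trh, which encodes the precursor of thyrotropin-releasing hormone. Its values were 5.32 and 5.55 on day 3, then 7.98 and 9.07 on day 5, with 4.82 and 4.33 in GFP cells. Both day 5 arrays stood above both day 3 arrays, by a mean of 3.09 ± 0.41 (8.51-fold, adjusted p = 0.00397). Lbp, the lipopolysaccharide-binding protein of the acute-phase response, had values of 5.11 and 6.06 on day 3, then 7.89 and 9.28 on day 5, a rise of 3.0 ± 0.23 (8.01-fold, adjusted p = 0.000227). Its day 3 values were those of GFP cells within 0.2, which had 5.17 and 5.88. Rnase1, a secreted ribonuclease, went from 4.79 and 5.48 to 7.95 and 8.20 (2.93 ± 0.19, 7.64-fold, adjusted p = 8.2e-05). In these 3 genes the arms did not overlap between the days, which their choice as the largest rises favours. The day 3 level was within about 1.3 of the GFP level.

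Acsbg1, an acyl-CoA synthetase of long and very long chain fatty acids, had 6.31 and 6.72 on day 3, then 8.57 and 9.50 on day 5. It rose by 2.52 ± 0.20 (5.72-fold, adjusted p = 0.000227) from a day 3 level already above GFP cells, which had 5.10 and 5.33. Avil, an actin-binding protein of the villin family, went from 4.94 and 5.31 to 6.76 and 8.46 (2.48 ± 0.29). Aldh3a1, an aldehyde dehydrogenase, had the widest gap to GFP cells, with 4.37 and 4.56 there, 7.65 and 8.05 on day 3, then 10.07 and 10.49 on day 5 (2.43 ± 0.23, 5.37-fold). Its day 3 arrays were thus above GFP cells before the rise measured here. Frem2, an extracellular matrix protein of basement membranes, went from 4.86 and 5.30 to 7.07 and 7.60 (2.26 ± 0.25).

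Necab1, a neuronal calcium-binding protein, went from 5.35 and 6.07 to 7.78 and 8.06 (2.21 ± 0.32, adjusted p = 0.00584). Gad2, which makes the transmitter GABA, went from 4.75 and 5.20 to 7.37 and 6.89, with the larger day 5 value in the untreated arm (2.15 ± 0.31, adjusted p = 0.00584). Tyrp1, a melanin synthesis enzyme, went from 4.19 and 4.62 to 5.77 and 7.47 (2.21 ± 0.31, adjusted p = 0.00552). In GFP cells Necab1, Gad2 and Tyrp1 lay between 3.56 and 3.95, below every SKO array used here. The last of the 12 named rises were Ifi203, an interferon-inducible gene described further on, and Olfml1, an olfactomedin-like secreted protein, which went from 4.65 and 4.78 to 6.44 and 6.98 (1.99 ± 0.20). In GFP cells Olfml1 had 5.29 and 6.70, so SKO cells of day 5 were within 0.3 of treated GFP cells and above untreated ones. Of the 12, 7 (Lbp, Rnase1, Acsbg1, Avil, Aldh3a1, Frem2 and Olfml1) passed without each of the 4 arrays in turn. Trh and Tyrp1 lost the call without the treated day 5 array (adjusted p = 0.0735 and 0.0821). Necab1 and Gad2 kept it only without the treated day 3 array, and Ifi203 only without the untreated day 3 array, with adjusted p-values up to 0.0821, 0.0700 and 0.202.

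The largest falls were smaller than the largest rises. Cnn1 encodes calponin, which binds actin in smooth muscle and contractile fibroblasts. It had 8.21 and 7.91 in GFP cells, 7.66 and 7.25 on day 3, then 5.94 and 5.90 on day 5, a fall of -1.54 ± 0.25 (2.91-fold lower, adjusted p = 0.0111). Ankrd1, a nuclear cofactor whose transcript responds to serum and mechanical load, went from 7.03 and 6.89 to 5.22 and 5.67 (-1.52 ± 0.25, 2.86-fold lower, adjusted p = 0.0121). Its day 3 values lay within 0.2 of GFP cells, so its fall was measured after day 3. Nqo1, a quinone reductase of the oxidant response, went from 6.88 and 6.96 to 5.72 and 5.66 (-1.24 ± 0.16, adjusted p = 0.00331), below its GFP values of 6.05 and 5.97. Plaur, the receptor of the protease urokinase, went from 6.92 and 6.91 to 5.78 and 5.64 (-1.20 ± 0.14, adjusted p = 0.00181). Nqo1 and Plaur were higher in SKO cells of day 3 than in GFP cells (5.98 and 6.09 for Plaur). In SKO cells of day 5 both genes were lower than in these GFP cells of day 3.

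Cd80, a costimulatory ligand of T cells, was at 6.68 in both day 3 arrays and at 5.70 and 5.53 on day 5 (-1.06 ± 0.18). Grb14, an adaptor that inhibits the insulin receptor, went from 8.64 and 8.35 to 7.47 and 7.40 (-1.06 ± 0.16). Ppbp, a chemokine of platelets, went from 5.17 and 5.45 to 4.37 and 4.18 (-1.03 ± 0.15). Ddit4l, an inhibitor of mTOR signalling, went from 7.39 and 7.60 to 6.24 and 6.69 (-1.03 ± 0.19), and Dysf, a membrane repair protein, from 6.63 and 6.47 to 5.66 and 5.41 (-1.02 ± 0.17). In each of these 5 genes both day 5 arrays lay below both day 3 arrays, which their choice by size of change favours. How many of all genes show this was not counted. Keg1 and Tdpoz1 fell by 1.10 and 1.09 from weak signals of 3.40 to 3.71. Usp17ld had the largest fall, from 7.27 and 7.78 to 5.70 and 6.26 (-1.55 ± 0.32, adjusted p = 0.0395). It belongs to a multi-copy family of deubiquitinases whose copies the probe may not separate, as does Tdpoz1 to a family of its own, so both are uncertain. None of the 12 named falls passed without the treated day 5 array (adjusted p between 0.0526 for Plaur and 0.445 for Tdpoz1). Nqo1 and Plaur passed without each of the other 3 arrays, Ppbp without either untreated array, Cnn1 and Ankrd1 only without the treated day 3 array and Keg1 only without the untreated day 3 array. The other 6 passed under no omission.

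**Figure D2:**
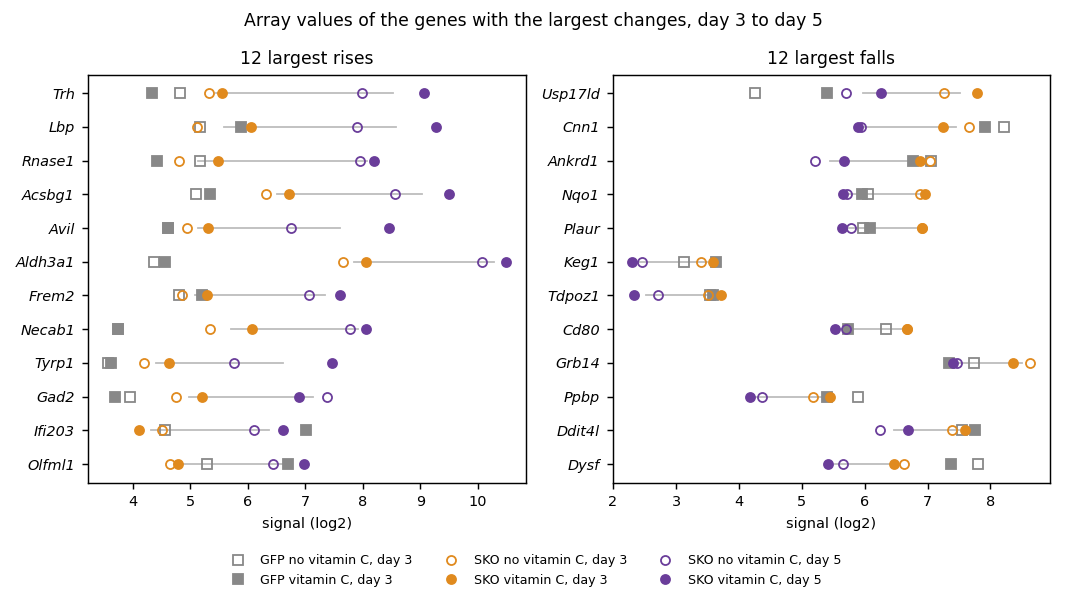
Signals (log2) of the 12 named genes with the largest rises (left) and falls (right) on the 2 GFP arrays of day 3, the 2 SKO arrays of day 3 and the 2 SKO arrays of day 5, 1 symbol an array; the grey line joins the means of SKO day 3 and day 5. Each gene's day 5 circles lie on 1 side of its day 3 circles, which the choice of the genes by size of change favours. Aldh3a1 and Acsbg1 are already above the GFP squares on day 3.

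Promoters were read from RefSeq (mouse build GRCm38.p6), as the 250 bases before and 50 after a gene's start, and searched on both strands for 7 short motifs; where RefSeq lists several starts, a gene counted once if any of them held the motif. Of the genes tested, 15614 had a promoter in that set, among them 176 of the 222 that rose and 48 of the 56 that fell. The core of the interferon-stimulated response element, GAAA and again GAAA with 2 bases between them, was in 3.89% of all promoters, in 7.39% of those of genes that rose (13) and in 2.08% of those that fell (1). The CArG box, bound by serum response factor, was in 1.63% of all, 1.14% of the rising and 8.33% (4) of the falling set. The shares for the other motifs were: AP-1 (TGANTCA) 8.08%, 8.52% and 6.25%; the CCAAT box 41.7%, 39.8% and 45.8%; E2F (TTTNNCGC) 7.55%, 4.55% and 6.25%; the ATF4 element (TGATGNAA) 3.62%, 3.41% and 2.08%; and the sterol element (TCACNCCAC) 1.40%, 2.27% and 4.17%, in the same order. These counts are small and were not tested, and a match is only a match of letters. Of the 12 named rises, Rnase1, Acsbg1 and Ifi203 held the interferon core, and of the 12 named falls Usp17ld did. Among these rises and falls only Ppbp held a CArG box, and Cnn1 and Ankrd1 did not. The stretches below show some of these matches, in capitals, in 2 of the 12 named rises and 1 of the 12 named falls.
Rnase1 (chr14:51146892-51146951, minus strand, bases -184 to -125 from the start, interferon core on the other strand): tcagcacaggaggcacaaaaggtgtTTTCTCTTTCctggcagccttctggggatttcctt
Ifi203 (chr1:173942493-173942552, minus strand, bases -60 to -1 from a RefSeq start that lies inside the annotated span of the gene, interferon core): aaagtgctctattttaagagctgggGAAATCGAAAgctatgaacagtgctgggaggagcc
Ppbp (chr5:90768406-90768465, plus strand, bases -112 to -53, CArG box): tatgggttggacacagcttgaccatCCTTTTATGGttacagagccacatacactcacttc

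Gene lists by pathway were then read, each by the number of its measured members that passed the test, beside 1.11% higher and 0.281% lower over all genes, and by its median beside -0.01 over all genes. Counts of members that moved 1 way in both arms stand beside 29.1% higher and 33.1% lower over all genes. Of the 278 genes, 42 were in any list and 236 in none. Where members at an unadjusted p under 0.05 are counted for day 5 against day 3, the number over all genes was 2236 of 19938. That number holds both directions. The lists were chosen with earlier results of these data known.

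**Figure D3:**
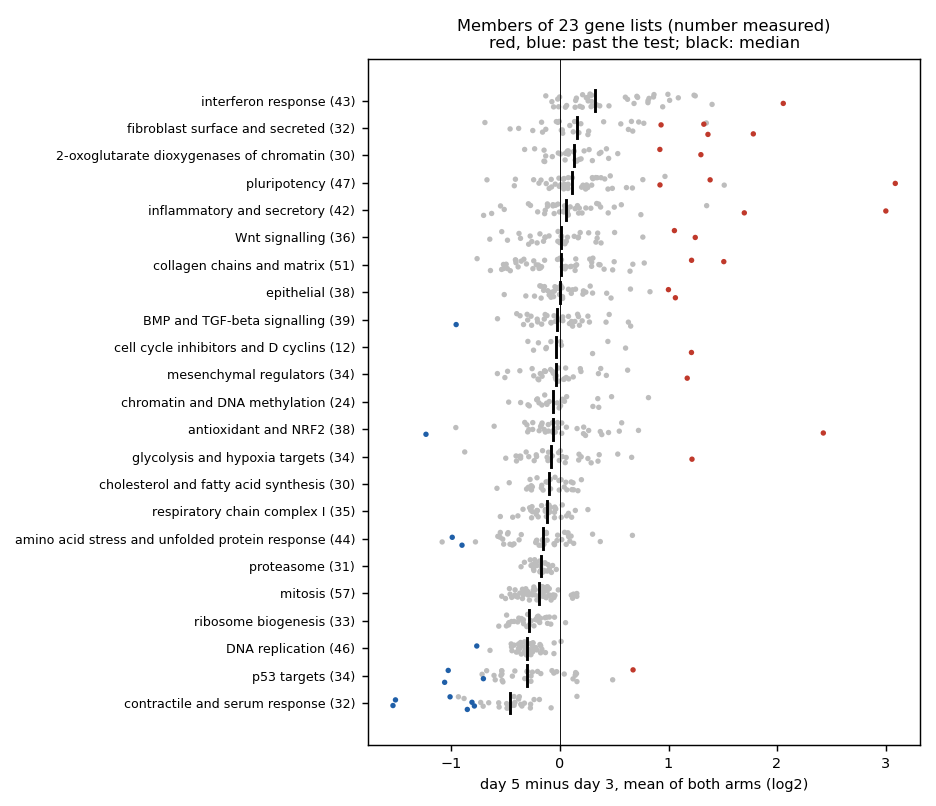
Day 5 minus day 3 (log2, mean of both arms) of every measured member of the 23 pathway lists, ordered by the median of the list (black bar); red and blue points passed the test as higher and lower, grey points did not. The contractile list has the lowest median, -0.47, and the interferon list the highest, 0.32.

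Among pluripotency genes, 3 of 47 passed the test, all higher, and the median of the list was 0.11. Trh, the largest rise of the whole comparison, led them, and the others were Tfcp2l1 and L1td1. Tfcp2l1, a transcription factor of naive pluripotency, had 4.72 and 5.07 on day 3, within 0.2 of GFP cells, and 5.60 and 6.96 on day 5 (1.38 ± 0.25, adjusted p = 0.0203). L1td1, an RNA-binding protein of pluripotent cells, went from 5.55 and 5.85 to 6.41 and 6.83 (0.92 ± 0.17). Fbxo15, an Oct4 target that is dispensable for pluripotency, went from 3.28 and 3.49 to 4.44 and 5.36, and Alpl, the alkaline phosphatase of early reprogramming, from 4.99 and 5.24 to 5.52 and 5.93. Neither passed (Fbxo15 by 1.51 ± 0.35, adjusted p = 0.0600; Alpl by 0.61 ± 0.18). Nanog, a core factor of the endogenous network, had 5.32 and 5.41 on day 3, then 5.17 and 5.54 on day 5, next to 5.32 and 5.36 in GFP cells (-0.01 ± 0.31, adjusted p = 0.998). Esrrb (0.41 ± 0.18), Sall4 (0.24 ± 0.18), Lin28a (0.03) and Fut4, which makes the SSEA-1 antigen (-0.41 ± 0.29), did not pass either. Without 1 array the count of 3 became 2 (untreated day 3), 1 (treated day 3), 1 (untreated day 5) and 0 (treated day 5).

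Of 38 epithelial genes 2 passed, both higher, with a median of 0.00. In both arms 11 members were higher and 7 lower, and 20 had opposite signs, so the genes named here do not stand for the whole list. Spint2, an inhibitor of membrane serine proteases, went from 5.98 and 6.11 to 7.09 and 7.12 (1.06 ± 0.14, adjusted p = 0.00449), and its day 3 values lay within 0.3 of GFP cells (6.20 and 6.03). Ocln, the tight junction protein occludin, went from 3.74 and 3.59 to 4.55 and 4.78 (1.0 ± 0.20, adjusted p = 0.0333). Epcam, an epithelial adhesion molecule, went from 4.22 and 4.36 to 4.83 and 5.40 (0.83 ± 0.20, adjusted p = 0.0694), and Cdh1, which encodes E-cadherin, from 4.81 and 4.76 to 5.15 and 5.28 (0.43 ± 0.22, adjusted p = 0.503). In both genes the day 5 arrays lay above the day 3 arrays, by less than the test required. The share of all genes with such a gap was not counted. Spint2 passed only without the treated day 3 array among the omissions, and Ocln under none.

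Of 34 mesenchymal regulators 1 passed, Foxd1, a forkhead factor of stromal cells, which was higher (7.22 and 7.84 to 8.50 and 8.90, 1.17 ± 0.17). The transcription factors that repress epithelial genes differed little: Snai1 by -0.20 ± 0.14, Snai2 by -0.24 ± 0.18, Zeb1 by -0.06 ± 0.16, Zeb2 by 0.04 and Twist1 by -0.04 ± 0.18, and none passed. Snai1 was at 7.56 and 7.94 in GFP cells against 6.22 and 6.29 in SKO cells of day 3, a gap wider than its change afterwards. Foxd1 passed only without the treated day 3 array among the omissions.

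Fibroblast surface and secreted genes moved upward where they passed: 4 of 32, with none lower and a list median of 0.15. Penk, the precursor of enkephalin peptides, went from 7.01 and 7.0 to 8.78 and 8.80 (1.78 ± 0.19, adjusted p = 0.00151) and passed without each of the 4 arrays. Nt5e, the ectonucleotidase CD73 of stromal cells, went from 6.86 and 7.22 to 8.17 and 8.63 (1.36 ± 0.17). The secreted Wnt antagonists Sfrp2 and Sfrp1 rose by 1.33 ± 0.17 and 0.93 ± 0.16. Sfrp1 had 9.09 and 9.48 in GFP cells, 8.25 and 8.31 in SKO cells of day 3, and 9.14 and 9.28 on day 5. The day 5 values were thus within 0.3 of the GFP cells of day 3. Thy1, a surface marker of fibroblasts, was at 10.25 and 9.81 in GFP cells, 8.74 and 8.85 on day 3, then 8.60 and 8.64 on day 5 (-0.17 ± 0.29, adjusted p = 0.888). The count of 4 was 4 without the untreated day 3 array, 3 without the treated day 3 or the untreated day 5 array and 1 without the treated day 5 array.

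Of 51 genes for collagen chains and matrix proteins 2 passed, the small proteoglycans Lum and Dcn, which bind collagen fibrils. Lum went from 6.73 and 7.66 to 8.38 and 9.03 (1.51 ± 0.27, adjusted p = 0.0179) and Dcn from 8.83 and 9.08 to 10.15 and 10.19 (1.21 ± 0.20, adjusted p = 0.0131). In GFP cells Lum had 8.16 and 10.06 and Dcn 9.22 and 9.97, so SKO cells of day 3 were below GFP cells and those of day 5 above the untreated GFP array. Against treated GFP cells, treated cells of day 5 were still lower in Lum (9.03 against 10.06) and higher in Dcn (10.19 against 9.97). The collagen gene Col1a1 went the other way without passing, from 12.42 and 12.39 to 11.96 and 11.93 (-0.46 ± 0.15, adjusted p = 0.232). The list split, with 19 members higher and 23 lower in both arms. Neither Lum nor Dcn passed when any 1 of the 4 arrays was left out (adjusted p up to 0.176 and 0.131).

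The contractile and serum response list had the lowest median of the 23, -0.47. Of its 32 members, 6 passed as lower and none as higher, and 30 were lower in both arms. Beside Cnn1 and Ankrd1 these were Tagln, which encodes transgelin, from 9.48 and 9.37 to 8.58 and 8.25 (-1.01 ± 0.20), the tropomyosins Tpm2 (-0.85 ± 0.17) and Tpm1 (-0.81 ± 0.14), and the LIM protein Csrp2 (-0.79 ± 0.15). Acta2, smooth muscle actin, went from 12.22 and 11.97 to 11.63 and 11.44 (-0.57 ± 0.20) and did not pass (adjusted p = 0.252). In GFP cells Tagln had 10.01 and 9.93, Tpm1 10.64 and 10.50 and Tpm2 8.47 and 8.33, all above their SKO values of day 3. With 1 array left out, 2 members passed without the treated day 3 array and 0 without any other of the 4 arrays. In limma on all 12 arrays, 23 of the 32 had an unadjusted p under 0.05, beside 2236 of all 19938 genes in either direction.

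Of 46 genes of DNA replication 38 were lower and 0 higher in both arms, with a median of -0.30, and 1 passed, Orc1, a subunit of the origin recognition complex (4.88 and 5.44 to 4.22 and 4.56, -0.77 ± 0.17, adjusted p = 0.0454). Orc1 passed under none of the 4 omissions. Of 57 genes of mitosis none passed under limma, 10 were lower at an unadjusted p under 0.05, 40 were lower in both arms and the median was -0.20. Mki67, a marker of dividing cells, read 8.37 in both arrays of day 3, then 8.47 and 8.52 (0.12 ± 0.14, adjusted p = 0.819). The p53 target list had a median of -0.30, with 3 of 34 members lower (Cd80, Ddit4l and Gtse1, a G2 and S phase protein that restrains p53, -0.71 ± 0.15) and 1 higher (Sesn1, a stress-induced inhibitor of mTOR, 0.67 ± 0.15, adjusted p = 0.0454). None of these 4 passed when 1 of the 4 arrays was left out.

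Cdkn1c, which encodes the CDK inhibitor p57, was the only one of 12 cell cycle inhibitors and D cyclins to pass. It had 9.0 and 9.97 in GFP cells, 7.63 and 7.77 in SKO cells of day 3 and 8.69 and 9.13 on day 5 (1.21 ± 0.14, adjusted p = 0.00196), and it lost the call only without the treated day 5 array (adjusted p = 0.0610). Cdkn2a and Cdkn2b, which encode inhibitors known from senescence, did not pass: Cdkn2a went from 6.52 and 6.04 to 6.03 and 6.56, with opposite signs in the arms (0.01 ± 0.22), and Cdkn2b differed by -0.20 ± 0.19.

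Lists of growth and energy genes had small negative medians and no member that passed. Members lower in both arms numbered 27 of 33 in ribosome biogenesis (median -0.28), 30 of 31 in the proteasome (median -0.18) and 25 of 35 in complex I of the respiratory chain (median -0.12), against 33.1% of all genes. At an unadjusted p under 0.05 in limma, 6, 1 and 2 members were lower. The path over day 4 was uneven: the proteasome medians were -0.53 from day 3 to day 4 and 0.37 from day 4 to day 5, those of complex I -0.38 and 0.26, and those of ribosome biogenesis -0.41 and 0.23. From day 4 to day 6 the medians of these lists, in this order, were -0.04, -0.02 and -0.02. Genes of cholesterol and fatty acid synthesis had a median of -0.10 over 30 members, with none past the test and 2 lower at an unadjusted p under 0.05.

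In the amino acid stress and unfolded protein response list, 2 of 44 genes passed, both lower, with a median of -0.16. Mthfd2, a mitochondrial enzyme of folate metabolism, went from 7.96 and 7.19 to 6.84 and 6.32 (-0.99 ± 0.15), and Phgdh, the first enzyme of serine synthesis, from 8.29 and 7.62 to 7.30 and 6.81 (-0.90 ± 0.15). The treated arm was lower than the untreated arm for both genes on both days. In the antioxidant list, Aldh3a1 rose and Nqo1 fell, and the other 36 of 38 members did not pass. Aldoc, an aldolase of glycolysis, was the 1 of 34 genes in the glycolysis and hypoxia list to pass (6.28 and 6.36 to 7.35 and 7.72, 1.22 ± 0.20). That list holds Pigq, matched by synonym in place of Gpi1. Mthfd2 passed only without the treated day 3 array, Aldoc only without the untreated day 3 array, and Phgdh under no omission.

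The interferon response list had the highest median, 0.32, with the arms far apart: 0.11 without and 0.70 with vitamin C. Of 43 members 23 were higher and 1 lower in both arms, 8 were higher at an unadjusted p under 0.05, and 1 passed, Ifi203, a DNA-sensing protein of the HIN-200 family. Ifi203 went from 4.50 and 4.11 to 6.11 and 6.62 (2.06 ± 0.37, 4.16-fold, adjusted p = 0.0196), with 4.55 and 7.02 in GFP cells. Ifit1, an antiviral RNA-binding protein, went from 4.60 and 4.42 to 5.10 and 6.41 (1.25 ± 0.60, adjusted p = 0.477) and Oas2, which makes an activator of RNase L, from 4.51 and 4.24 to 4.94 and 6.28 (1.24 ± 0.55, adjusted p = 0.432). Both were chosen after their values were seen, and in both the treated day 5 array was the highest of the 4. In GFP cells the treated array was also the higher one, with Ifit1 at 8.70 against 5.95 and a list mean of 6.85 against 5.56. The part that the virus, the GFP control or the medium had in these levels was not tested.

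Of 42 genes in the inflammatory and secretory list 2 passed, both higher. The list holds the olfactory receptor Olfr48, matched by synonym in place of C3, which was not read. Lbp is described above. Mmp3, the protease stromelysin, went from 4.19 and 3.76 to 5.56 and 5.78 (1.70 ± 0.29, adjusted p = 0.0131), with 4.50 and 6.04 in GFP cells, and passed only without the untreated day 5 array among the omissions.

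In the Wnt signalling list 2 of 36 passed, the antagonists Dkk2 (7.41 and 7.98 to 8.66 and 9.22, 1.25 ± 0.18) and Sfrp4 (7.96 and 7.91 to 8.89 and 9.08, 1.05 ± 0.17). In the BMP and TGF-beta list 1 of 39 passed, Fstl3, which binds activins, and it was lower (6.68 and 6.52 to 5.63 and 5.66, -0.96 ± 0.14). Medians of both lists were within 0.1 of 0. Dkk2 and Fstl3 passed only without the treated day 3 array, and Sfrp4 only without the untreated day 3 array.

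Of 30 chromatin enzymes of the 2-oxoglutarate dioxygenase family, the class for which vitamin C is a cofactor, 2 passed. Tet2, which oxidises 5-methylcytosine, had 5.53 and 5.50 in GFP cells, 5.86 and 5.76 on day 3, then 6.82 and 7.39 on day 5 (1.30 ± 0.23, 2.46-fold, adjusted p = 0.0177). Kdm7a, a histone demethylase, went from 7.26 and 7.22 to 8.03 and 8.29 (0.92 ± 0.17). Both rose in both arms, and the treated day 5 array was the highest. Tet1 (0.30 ± 0.19, with 1 of its 3 probes of the other sign) and Tet3 (0.36 ± 0.23) did not pass. Neither Tet2 nor Kdm7a passed when 1 of the 4 arrays was left out (adjusted p up to 0.269 and 0.338). None of 24 other genes of chromatin and DNA methylation passed under limma (5 at an unadjusted p under 0.05), 6 of them higher and 11 lower in both arms.

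In the 8 lists of markers of other cell types, 5 genes passed, all higher, as did 1.11% of all genes. The size of each list is given with it. In the macrophage list 1 of 23 passed, the lysosomal protein Laptm5 (5.38 and 5.53 to 6.39 and 6.72), and the summed linear signal was 598 and 736 in GFP cells, 554 and 587 in SKO cells of day 3 and 651 and 691 in those of day 5. Of the 23 members 8 were higher and 4 lower in both arms, beside 29.1% and 33.1% of all genes, with a median of 0.11. Ptprc (3.63 and 3.68 to 4.13 and 3.95), Csf1r (4.47 and 4.52 to 4.70 and 4.41) and Tyrobp (4.06 and 4.82 to 4.54 and 4.59) were below the median of all genes on these arrays. They were picked after their low values were seen and do not stand for the whole list. In the endothelial list 1 of 17 passed, the angiopoietin receptor Tek, which was already at 7.08 and 7.58 on day 3 against 4.49 and 4.86 in GFP cells, and reached 8.06 and 8.83. The endothelial sum was 732 and 762 in GFP cells, 684 and 731 in SKO cells of day 3 and 785 and 1006 in those of day 5. Without Tek it was 710 and 733, then 548 and 540, then 518 and 551. In the neural list 1 of 16 passed, the neurofilament Nefl (5.08 and 5.59 to 6.40 and 7.40), with a sum of 2796 and 2702 on day 3 and 2665 and 2501 on day 5. Cd36, a fatty acid transporter of the fat and cartilage list, went from 4.35 and 4.73 to 6.57 and 6.13 (1 of 16 past the test), and Dab2, an endocytic adaptor of the endoderm list, from 9.03 and 8.95 to 9.71 and 9.73 (1 of 16). None of 18 muscle, 9 erythroid or 12 keratinocyte markers passed under limma, and 2, 3 and 1 of them had an unadjusted p under 0.05. Over all genes 2236 of 19938 had such a p, in either direction. The part of any such cells in the changes above was not tested, and of the 5 genes only Cd36 passed under an omission, that of the treated day 3 array.

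The difference between the arms was tested directly, by terms for the arm on day 3 and on day 5. No gene passed after adjustment (0%), while 495 had an unadjusted p under 0.05 (2.48%). The spread of the change over all genes was 0.32 (SD) without and 0.36 with vitamin C. The largest differences were in genes whose arms moved apart. Slc7a3, an arginine transporter, changed by -0.56 without and 1.90 with vitamin C (difference 2.46 ± 0.62), Oasl2, an interferon-induced gene, by -0.07 and 1.80 (1.88 ± 0.82), and Oit1 by 0.33 and 2.15 (1.82 ± 0.51). In the other direction stood Timm21, of the mitochondrial import machinery (1.49 and -0.86, difference -2.35 ± 0.48), Pramel27 (0.35 and -1.64, -2.0 ± 0.89) and Pate5 (1.24 and -0.76, -2.0 ± 0.41). All 6 had an adjusted p of 1.0, so at 1 array a point the size of an effect of vitamin C on this interval was not resolved.

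A later window of equal length, from day 4 to day 6, was then read. It overlaps the first in time but uses none of its arrays, and it comes from the same fit. Between these days 89 genes passed (0.446%), 78 higher (0.391%) and 11 lower (0.0552%). Of the 222 genes that rose from day 3 to day 5, 217 were also higher on day 6 than on day 4, 216 of them in both arms, which 25.3% of all genes were, and 65 passed the test in that direction. Of the 56 that fell, 52 were also lower, 48 of them in both arms, which 29.9% of all genes were, and 5 passed. None of the 278 passed in the opposite direction. Far fewer genes passed when any 1 of these 4 arrays was left out, in fits that have 1 array on day 4 or on day 6. The median changes from day 4 to day 6 were smaller than those from day 3 to day 5. They were 0.77 for the risers and -0.50 for the fallers, beside -0.03 over all genes.

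Lbp (2.57, adjusted p = 0.00337) and Trh (2.25) again had large rises, and Frem2 rose by 1.93. Aldh3a1 was 1.10 higher without passing (adjusted p = 0.0719), and Usp17ld, which had the largest fall by day 5, was 0.78 higher on day 6 than on day 4. Among the contractile genes 4 of 32 passed as lower, Cnn1 (-1.49), Tagln (-1.28) and Tpm1 (-0.80) among them, while Ankrd1 was at -0.56 (adjusted p = 0.448). Tet2 differed by 0.98 and Penk by 1.31, of which Penk passed. No gene of the interferon list passed in this interval under limma, where 17 of 43 were higher at an unadjusted p under 0.05 and the median was 0.63. Over all genes 2168 of 19938 had such a p in this interval, in either direction.

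**Figure D4:**
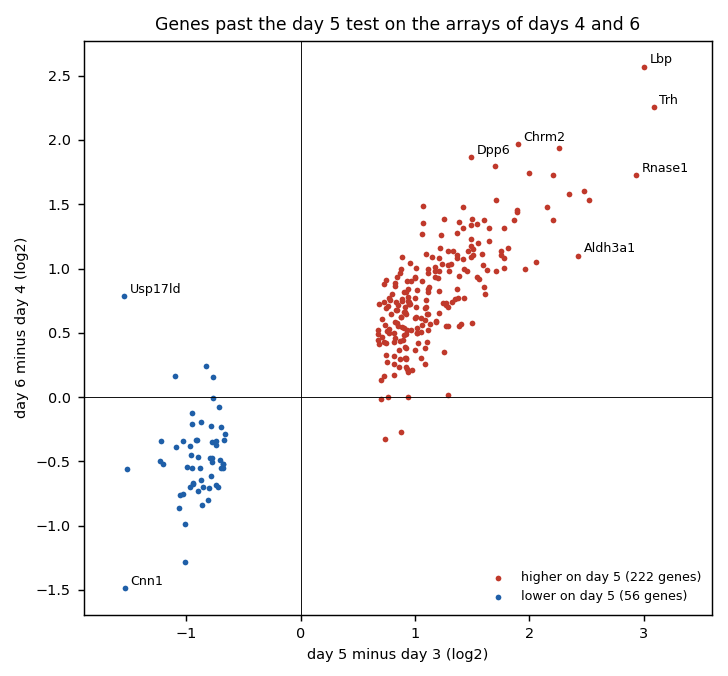
Day 5 minus day 3 (horizontal, log2) against day 6 minus day 4 (vertical, log2) for the 222 genes past the test as higher (red) and the 56 past it as lower (blue), 1 point a gene; the arrays of the axes are not shared. Of the red points 217 lie above 0 and of the blue points 52 below 0, with Usp17ld the furthest exception.

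The other days give the path of these genes, from comparisons that share arrays with the one described. Steps to and from day 4 cross between the sets of days seen in Tet3 and Snai1, and that from day 5 to day 10 does not. The 222 risers had medians of 0.57 from day 3 to day 4, 0.61 from day 4 to day 5 and 0.53 from day 5 to day 10. The 56 fallers had -0.49, -0.43 and -0.34. Trh (2.07), Lbp (1.89) and Rnase1 (1.61) rose further by day 10, while Aldh3a1 (0.15) and Gad2 (0.04) were within 0.2 of day 5 and Cd36 was 1.02 lower (adjusted p = 0.0891). Some preset genes had not passed by day 5. Of these, Fbxo15 was 2.23, Epcam 2.08 and Nanog 1.17 higher on day 10 than on day 5. Nanog did not pass in limma (adjusted p = 0.0864). Its values were 5.17 and 5.54 on day 5, then 5.71 and 7.35 on day 10, so most of its rise lay in the treated arm. Alpl differed by 0.25, Sox2 by 0.36, Pou5f1 by 0.16 and Esrrb by -0.35 over these 5 days. Cnn1 fell by a further 1.36, and Ankrd1 differed by -0.15. The mitosis list, with a median of -0.20 by day 5, had -0.65 from day 5 to day 10.

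**Figure D5:**
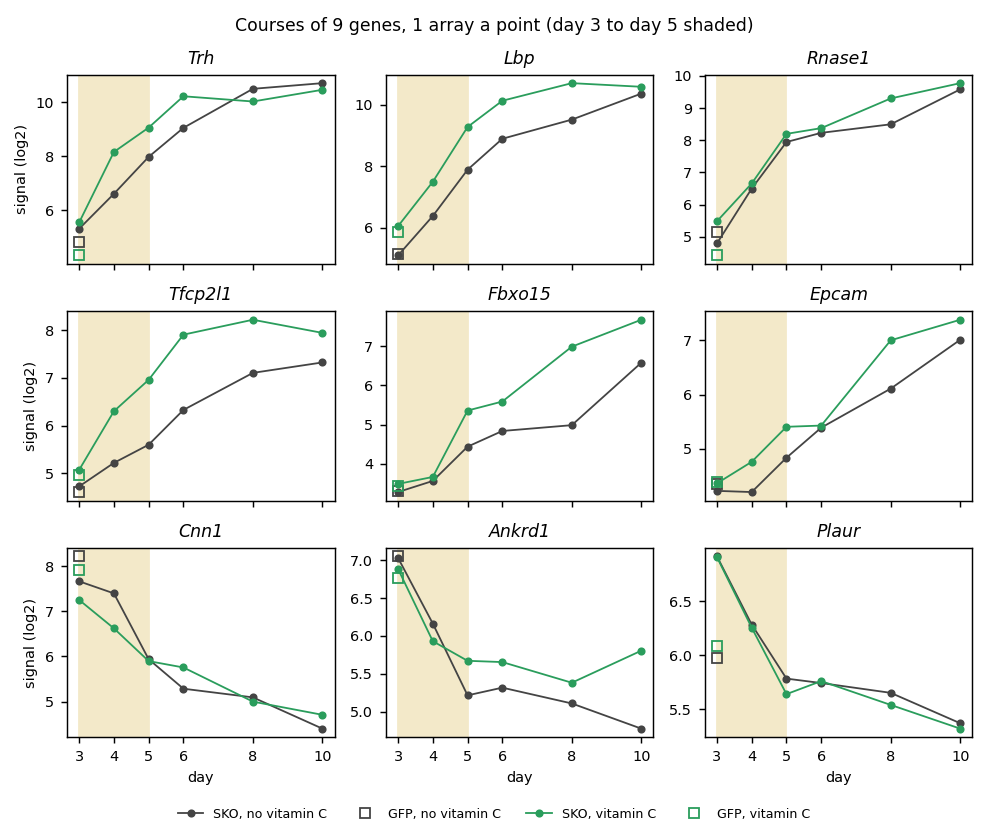
Signals (log2) of 9 genes on days 3, 4, 5, 6, 8 and 10 in SKO cells without (grey) and with (green) vitamin C, and in GFP cells on day 3 (open squares), 1 array a point; the interval from day 3 to day 5 is shaded. Trh, Lbp and Rnase1 rise within the interval and beyond it, Epcam and Fbxo15 reach their highest values on day 10, and Ankrd1 and Plaur fall within the interval.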

How the data were processed

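Per the labels' protocols, Trizol-extracted RNA (100 ng) was labelled for whole-transcript arrays of Affymetrix. The authors deposited log2 values for 28853 probes, made with RMA and Partek per the submitters' processing notes, with versions not given in the sources used here. That the scale is log2 was read from the values. RMA compresses differences of weak genes. The platform annotation gave 1 symbol to 21789 probes, several to 1621 (not used) and none to 5443. Entrez identifiers linked 19856 of 19938 genes to RefSeq names (GRCm38.p6), and a gene took its probe with the highest mean (999 genes had several). The number of arrays limits the precision.

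limma 3.58.1 (R 4.3.3) was fitted to the 12 SKO arrays with the day and the vitamin C arm as terms (5 residual degrees of freedom), and p-values were adjusted by Benjamini and Hochberg over the 19938 genes (threshold 0.05). The arm pairs the arrays by day, as the labels give them; deviations of the paired arrays correlated across genes with r between 0.248 (day 6) and 0.677 (day 3). The arm difference left 3 degrees of freedom. The scripts were tested on simulated data. The members and gene lists were chosen with earlier results of these data known. Named genes were the 12 largest each way, up to 2 each way per list, 28 preset genes, and 3 each way for the arm difference; L1td1, Sfrp1, Sfrp2, Tagln, Tpm1, Tpm2, Csrp2, Gtse1, Ifit1, Oas2 and the macrophage genes at low signal were added after their values were seen. Clone names and predicted genes were not named. Listed names not found were matched by synonym, which put Olfr48 for C3, Pigq for Gpi1 and Loxl3 for Loxl2. None of these passed. Alternatives covered scaling, dim genes, probe choice, variance settings, arrays and days.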

Additional observations from a re-analysis of the deposited data

How the results depend on the processing

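The 278 genes (222 higher, 56 lower) became 437 (326 and 111) with the 6646 dim genes left out, 487 (358 and 129) with an intensity trend, 111 (104 and 7) from the 4 arrays alone and 64 (58 and 6) within days 3, 5 and 10, a setting chosen after seeing the data. Without the arm term, that is with no replicate block, 129 passed (105 and 24), all of them among the 278. Without 1 of the 4 arrays the count lay between 25 and 95 (25 to 88 higher, 0 to 7 lower). Without 1 of its 4 arrays, day 6 against day 4 gave between 0 and 8 genes (chosen after seeing the data). With dim genes left out, 150 genes passed for day 6 against day 4, 2504 for day 4 against day 3 and 2327 for day 5 against day 4. Quantile normalization, centring, the mean of a gene's probes, robust variance, all 14 arrays, a drift of the arm difference and leaving out day 4, 6, 8 or 10 gave between 228 and 347. For each of these changes the cause was not tested, beyond the smaller number of genes or arrays that some settings have by construction. The limma test of the arm difference had 0 genes under all 5 settings tried, with 194 to 538 at an unadjusted p under 0.05.

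Over 76 named genes and 19 settings, 1193 of 1437 values kept their direction and side of the threshold, 218 fell short of it, 8 newly passed (Fbxo15 and Epcam) and 18 changed sign, all in genes that had not passed. Lin28a was -0.003 with quantile normalization and -0.002 with centring, and lay between -0.028 and 0.095 without 1 array. Zeb2 was -0.001 with centring and -0.009 with drift, and lay between -0.021 and 0.091 without 1 array. Cdkn2a was -0.022 with centring and Myc 0.017 with drift. Without 1 of the 4 arrays Cdkn2a lay between -0.313 and 0.339, Myc between -0.315 and 0.099, Klf4 between -0.002 and 0.379, Nanog between -0.341 and 0.326, Fut4 between -0.959 and 0.137, Twist1 between -0.144 and 0.069 and Cdkn2b between -0.414 and 0.015. The cause of these changes was not tested.

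With 1 array per condition and day, the errors assume that arms vary alike on every day, and weak signals understate change.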

Other observations

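Other genes that passed the test between day 3 and day 5 lie in none of the lists; those named here were chosen after their values were seen. Serping1, the inhibitor of complement C1, went from 7.54 and 8.05 to 9.03 and 9.29 (1.37 ± 0.15), Cd55, which speeds the decay of complement convertases, from 6.62 and 6.60 to 8.12 and 7.95 (1.42 ± 0.22), and C1s1, a protease that activates the cascade, from 5.33 and 5.75 to 6.87 and 7.12 (1.45 ± 0.24). Serping1 and Cd55 also passed from day 4 to day 6, by 0.84 and 1.32. With each of the 4 arrays left out in turn, Serping1 passed under all 4 omissions, Cd55 under 1 and C1s1 under 0. Aldh1a1, which makes retinoic acid, had 6.34 and 6.22 on day 3 and 7.86 and 7.92 on day 5 (1.61 ± 0.17), and it passed without each of the 4 arrays in turn, as did Podxl (1.46 ± 0.17), an adhesion-modulating sialomucin, Jam2 (1.54 ± 0.18), a junctional adhesion molecule, and Apod (1.75 ± 0.20), an apolipoprotein.

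The ETS factors Etv1 (6.99 and 6.87 to 7.87 and 7.76) and Etv5 (7.19 and 7.47 to 8.10 and 8.03) and the phosphatase Dusp6 (8.10 and 8.28 to 8.76 and 8.99) also passed as higher on day 5, and Etv1 also passed from day 4 to day 6 (0.77). The chemokine receptor Cxcr4 went from 6.87 and 6.64 to 7.86 and 8.66 (1.51 ± 0.24). Lipid transporters of the ABC family that passed were Abca6 (1.75 ± 0.22), Abca9 (1.11 ± 0.17), Abca1 (1.0 ± 0.20) and Abca8a (0.93 ± 0.17). Among the falls, Plau, the ligand of Plaur, went from 7.15 and 7.19 to 6.02 and 6.56 (-0.88 ± 0.17), and Has2, which makes hyaluronan, from 8.89 and 8.72 to 8.12 and 8.00 (-0.74 ± 0.16). Bmper and Bmpr1b, a BMP-binding protein and a BMP receptor, fell by 0.95 ± 0.16 and 0.91 ± 0.15. With 1 array left out, Abca6 passed under 3 omissions and Cxcr4 under 1, while Etv1, Etv5, Dusp6, Abca1, Abca8a, Abca9, Plau, Has2, Bmper and Bmpr1b passed under none of the 4.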
